A study of Rattus norvegicus with 23 samples.

Results

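Hmox1 and 4 further genes of the oxidative stress response, Nqo1, Gclc, Gclm and Txnrd1, were followed through 23 RNA sequencing libraries of cultured rat brain aggregates. These 5 genes, of 32494 gene identifiers in the count tables, were chosen by Ensembl identifier: ENSRNOG00000014117 (Hmox1), ENSRNOG00000012772 (Nqo1), ENSRNOG00000006302 (Gclc), ENSRNOG00000013409 (Gclm) and ENSRNOG00000009088 (Txnrd1). The pairing of identifiers with symbols came with this choice, as neither the count tables nor the reference tables used here hold it. Hmox1 was chosen for its higher level in controls at 6 hours than at 0 hours, and the other genes to ask whether that rise was shared. The contrast of 6 with 0 hours is therefore described below without a test.

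The aggregates are spheres formed by dissociated brain cells of Sprague Dawley rat embryos of embryonic day 15, grown for 14 days with agitation. Sepiapterin, a pteridine that cells convert to tetrahydrobiopterin, was given at 120 ng/ml and sampled at 6, 12 and 24 hours (T6, T12 and T24). Controls received phosphate-buffered saline (PBS) and were sampled at the same times and at 0 hours (T0). There were 3 libraries in each of these 7 groups, and repeat libraries of 2 T12 controls. All groups share strain, embryonic age and culture, and the labels name no transgene or deletion. The labels name neither the litters nor the number of cultures, so the spread between replicates may be technical. Cell type markers were not analysed here, because the identifiers of other genes were not paired with symbols.

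NRF2, the transcription factor encoded by Nfe2l2, is held low in unstressed cells by KEAP1, which delivers it for degradation. Oxidants and electrophiles modify KEAP1, and NRF2 then accumulates and binds antioxidant response elements together with small MAF proteins. The repressor BACH1, which is released from DNA by heme, competes for the same elements, most clearly at Hmox1. In brain tissue the response is known mainly from astrocytes, which supply neurons with glutathione precursors.

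Libraries held 16991417 to 26588314 reads in genes. All 5 genes passed the low-count filter, with 137 to 4802 reads in any library. Levels are given in CPM, the read count of a gene relative to its library's total after TMM scaling. A difference was called at a Benjamini-Hochberg adjusted p under 0.05 over all genes tested with edgeR's quasi-likelihood test. By label, T6 and T12 libraries were made in a first batch, and T24 libraries with the repeated T12 controls in a second. No source used here gives the batch of T0, so time and library batch cannot be told apart in comparisons with T0. For samples 10 and 11, the 4 libraries' titles and the headers inside the files disagree on which is the repeat. Groups follow titles, and values by header are given where they differ. T0 control replicate 1 lay further from its group than any other library, at a mean root mean square distance of 0.386 log2 units, against 0.232 to 0.330 elsewhere.

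**Figure D1:**
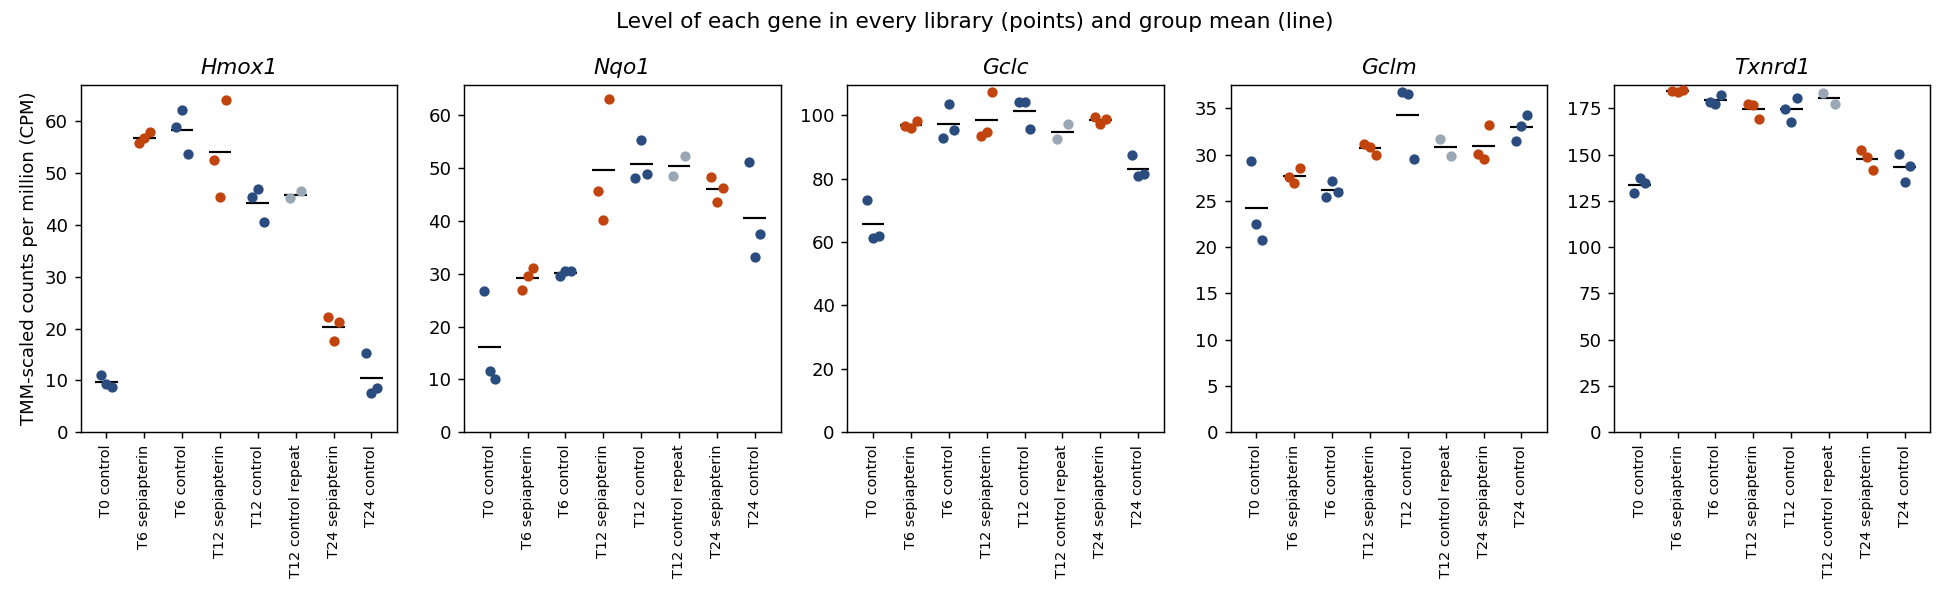
Level of each gene in CPM (vertical axis, linear from 0) in every library by group (horizontal axis), with points for libraries and a line for each group mean; orange marks sepiapterin, dark blue controls and grey the repeated T12 controls. Hmox1 stood at 40.6 to 64.2 CPM in all T6 and T12 libraries and at 7.63 to 22.3 CPM in all T0 and T24 libraries, whereas the group means of Nqo1 were highest at T12.

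Hmox1, which encodes the inducible heme oxygenase that breaks heme down to biliverdin, carbon monoxide and iron, stood at 59.0, 62.1 and 53.7 CPM in T6 controls, against 11.1, 9.30 and 8.67 CPM in T0 controls. Every T6 control lay above every T0 control. The fitted log2 fold change was 2.59, a 6.04-fold difference and the second highest of 14035 genes. T6 sepiapterin libraries, which the choice of Hmox1 did not use, stood at 55.8, 56.8 and 58.1 CPM, close to the T6 controls. They share the T0 controls with the first contrast, so the 5.90-fold difference from T0 is no separate evidence.

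Of the other 4 genes, 3 also lay above T0 in every T6 control, but by less. Nqo1, a quinone reductase that uses NADH or NADPH, stood at 29.6, 30.4 and 30.6 CPM in T6 controls, against 26.6, 11.6 and 10.1 CPM in T0 controls. T0 control replicate 1 reached almost the T6 level, while the other T0 controls stood far below it. The log2 fold change was 0.91 (1.87-fold), and 1.49 (2.81-fold) without that library.

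Gclc and Gclm encode the catalytic and the modifier subunit of glutamate-cysteine ligase, the rate-limiting enzyme of glutathione synthesis. The catalytic subunit gene Gclc stood at 93.0, 103.7 and 95.3 CPM in T6 controls, against 73.3, 61.4 and 62.1 CPM in T0 controls, a log2 fold change of 0.58 (1.49-fold) with no overlap. For Gclm the T6 controls stood at 25.4, 27.2 and 25.9 CPM, against 29.3, 22.5 and 20.8 CPM in T0 controls. These groups overlapped, because T0 control replicate 1 exceeded all T6 controls. The log2 fold change of Gclm was 0.12, and 0.29 without that library.

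Txnrd1, the cytosolic thioredoxin reductase that keeps thioredoxin reduced, stood at 178, 177 and 182 CPM in T6 controls, against 129, 137 and 135 CPM in T0 controls. Its log2 fold change of 0.43 (1.35-fold) was the steadiest of the 5 when single libraries were left out, at 0.41 to 0.44. T0 control replicate 1, high for Nqo1, Gclc and Gclm, was the lowest T0 library for Txnrd1. Without overlap, 4 of the 5 genes lay above T0, among them Hmox1, which was chosen for this rise. Of all 14035 genes 17.4% did so, and the median log2 fold change of all genes was -0.01. In the same contrast 10.9% of all genes were called higher and 21.6% in either direction. Hmox1 stood at rank 2, Nqo1 at 75, Gclc at 262, Txnrd1 at 576 and Gclm at 3629 of 14035 genes ordered from the highest log2 fold change.

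Antioxidant response elements are written here as TGACNNNGC, a core searched on both strands over the 250 bases before each start listed in a RefSeq promoter table (build GRCr8, matched by symbol). Windows were found for 4 of the 5 genes, 5 windows in all since Txnrd1 had a pair. No window was found for Hmox1, so the search says nothing about that gene. The motif was held by 2 windows, compared with 10.1% of 33469 windows of this length. A listed start need not be the outer end of the annotated gene. Both Txnrd1 windows lie inside the annotated Txnrd1 gene (chr7:22717620-22802553), and 225 of the 250 bases of the Gclc window lie inside Gclc, while those of Gclm and Nqo1 end next to their genes. The windows of Gclm and Txnrd1 are shown because they hold a match, in capitals. That of Nqo1 is shown because its T6 controls stood further above T0 than theirs while its window holds none. The same was true of Gclc, whose window is not shown.
Gclm, chr2:213031885-213032134, strand +: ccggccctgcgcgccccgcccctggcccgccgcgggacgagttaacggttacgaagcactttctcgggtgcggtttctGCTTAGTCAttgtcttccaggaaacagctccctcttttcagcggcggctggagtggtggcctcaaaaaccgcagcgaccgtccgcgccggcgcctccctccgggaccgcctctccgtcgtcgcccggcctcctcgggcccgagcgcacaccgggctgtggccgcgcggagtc
Txnrd1, chr7:22755905-22756154, strand -: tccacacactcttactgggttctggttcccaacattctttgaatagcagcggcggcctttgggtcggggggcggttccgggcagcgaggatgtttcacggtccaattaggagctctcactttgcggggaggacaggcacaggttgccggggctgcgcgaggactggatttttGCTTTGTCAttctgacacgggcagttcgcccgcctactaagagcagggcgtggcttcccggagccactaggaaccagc
Nqo1, chr19:52220268-52220517, strand -: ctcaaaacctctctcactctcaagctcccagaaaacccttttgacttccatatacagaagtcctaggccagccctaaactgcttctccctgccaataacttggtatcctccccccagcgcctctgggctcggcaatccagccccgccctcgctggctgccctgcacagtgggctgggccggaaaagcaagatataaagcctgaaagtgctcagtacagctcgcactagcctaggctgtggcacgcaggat
In Gclm the match begins at position -172 and in Txnrd1 at position -78 from the listed start, both on the opposite strand as GCTTAGTCA and GCTTTGTCA. The other Txnrd1 window and that of Gclc held no match. A match is a description of these letters and not evidence of a bound site. Bases outside these windows were not searched, so a window without a match does not show that a gene lacks an element.

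**Figure D2:**
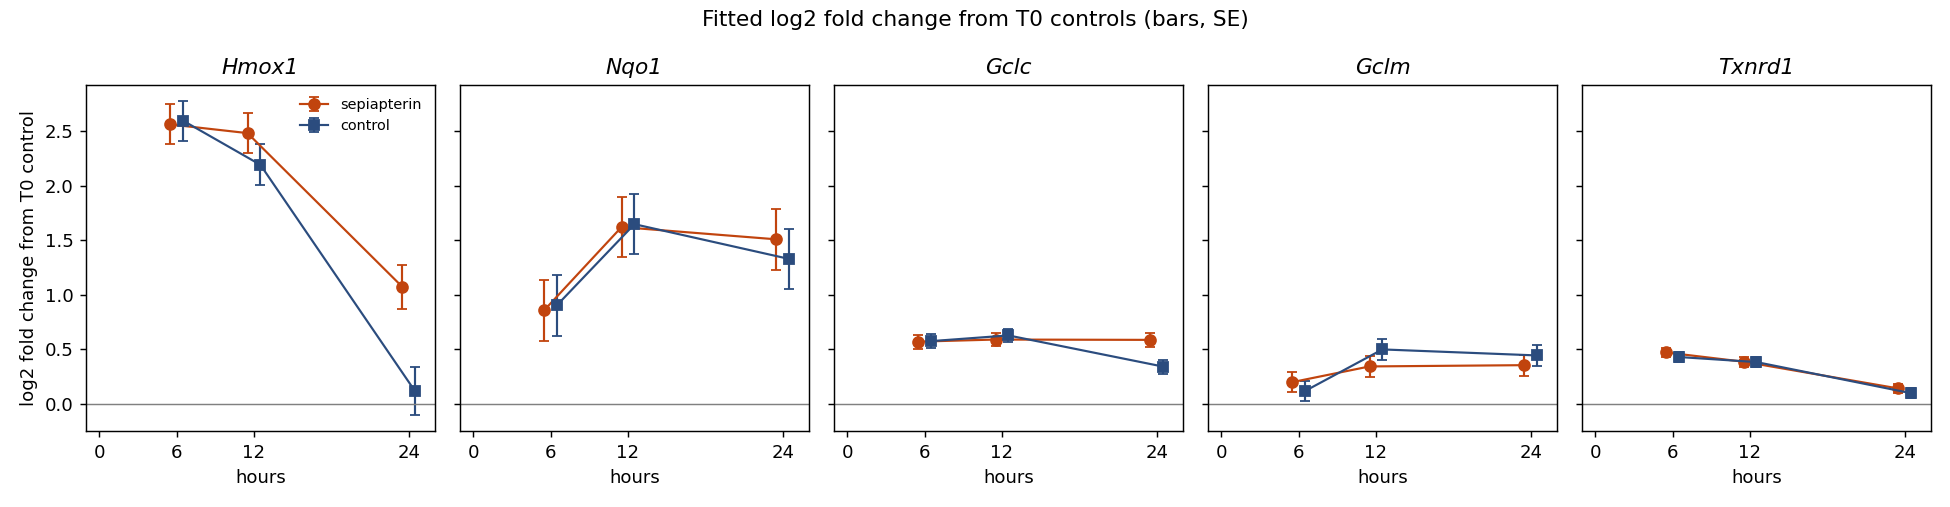
Fitted log2 fold change from T0 controls (vertical axis) at 6, 12 and 24 hours (horizontal axis, hours) for each gene, in sepiapterin (circles) and control (squares) aggregates; bars are standard errors, and all points share the T0 controls. Hmox1 in controls came down to 0.12 at T24, while Nqo1 stood at 1.33 there.

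Hmox1 stood at 52.5, 45.3 and 64.2 CPM with sepiapterin and 45.4, 46.9 and 40.6 CPM in controls at T12. At T24 it stood at 22.3, 17.5 and 21.3 CPM with sepiapterin and 15.3, 7.63 and 8.47 CPM in controls. From highest to lowest the Hmox1 group means ran from T6 controls (58.3 ± 4.25 CPM) over T6 sepiapterin (56.9 ± 1.15), T12 sepiapterin (54.0 ± 9.53), the T12 repeats (45.9 ± 0.94, n = 2) and T12 controls (44.3 ± 3.30) to T24 sepiapterin (20.4 ± 2.53), T24 controls (10.5 ± 4.19) and T0 controls (9.69 ± 1.27; SD, n = 3 unless stated). Neighbours among the T6 and T12 groups overlapped, as did T24 and T0 controls, while the T24 sepiapterin libraries lay apart from the groups on both sides of them.

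In Nqo1 the order was another. T12 libraries with sepiapterin stood at 45.7, 40.3 and 63.1 CPM, T12 controls at 48.2, 55.3 and 48.8 CPM, and the T12 repeats at 48.6 and 52.3 CPM. At T24 the values were 48.3, 43.7 and 46.2 CPM with sepiapterin and 51.2, 33.2 and 37.4 CPM in controls. T6 libraries, at 27.0 to 31.0 CPM, lay below all T12 and T24 libraries, and the T12 groups of 3 overlapped both T24 groups. The T12 repeats lay just above all T24 sepiapterin libraries and overlapped the T24 controls.

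The change from T6 to T12 was tested in sepiapterin libraries, which the reason for choosing Hmox1 did not use and which share the first batch by label. No member was called by edgeR or DESeq2, where 4.37% of all genes were called, and 1 of 5 had an unadjusted p under 0.05, as did 21.2% of all genes. Nqo1 had the largest difference, with 45.7, 40.3 and 63.1 CPM at T12 against 27.0, 29.6 and 31.0 CPM at T6, a log2 fold change of 0.76 ± 0.25 (SE; edgeR adjusted p = 0.10). These groups did not overlap, but the T12 libraries differed widely among themselves. Gclm also lay above its T6 libraries without overlap, as 16.2% of genes did, and Txnrd1 below, as 14.4% did. Hmox1 differed by -0.08 ± 0.15 in log2 fold change (edgeR adjusted p = 0.81, 95% interval -0.40 to 0.24).

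In controls, the T6 libraries are those that chose Hmox1, whose lower T12 values (log2 fold change -0.40, no overlap) are therefore given without a test. Of the other 4 genes, 1 was called between T12 and T6, where 2.79% of all genes were called higher. Gclm stood at 36.7, 36.6 and 29.6 CPM at T12 against 25.4, 27.2 and 25.9 CPM at T6, a log2 fold change of 0.38 ± 0.09 (SE; edgeR adjusted p = 0.021). The higher pair of T12 values came from samples 10 and 11, whose other libraries stood at 31.7 and 29.9 CPM. With T12 controls taken by file header the log2 fold change of Gclm was 0.21 (edgeR adjusted p = 0.23), and the call was also lost without T12 control replicate 1 or 2 or T6 control replicate 1 or 3, at adjusted p-values of 0.080 to 0.14. Nqo1 did not pass over the 7 groups (log2 fold change 0.74 ± 0.25, edgeR adjusted p = 0.11), although its T12 and T6 libraries did not overlap. Of all genes 16.2% lay above and 13.1% below without overlap. In a fit of these 2 groups alone Nqo1 passed, with an edgeR adjusted p of 1.66e-06.

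From T12 to T24 with sepiapterin, 2 of 5 genes fell, where 5.43% of all genes were called lower. Hmox1 stood at 22.3, 17.5 and 21.3 CPM at T24 against 52.5, 45.3 and 64.2 CPM at T12, a log2 fold change of -1.41 ± 0.17 (SE; edgeR adjusted p = 0.000172). Txnrd1 stood at 153, 149 and 142 CPM at T24 against 177, 177 and 169 CPM at T12, a log2 fold change of -0.24 ± 0.04 (edgeR adjusted p = 0.00104). Both genes had all T24 libraries below all T12 libraries, as 14.7% of genes had, and both calls held without any 1 of the 6 libraries. Gclc (log2 fold change -0.00 ± 0.06), Gclm (0.01 ± 0.09) and Nqo1 (-0.11 ± 0.25) were not called. T24 and T12 libraries belong to different batches by label, so time and library batch cannot be told apart here. The fall of Hmox1 between these times in controls was known when it was chosen.

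Within the second batch by title, T24 controls were set against the repeated T12 controls. Hmox1, for which this difference was known when it was chosen, stood at 15.3, 7.63 and 8.47 CPM at T24 against 45.2 and 46.5 CPM in the repeats. Of the other 4 genes, Txnrd1 fell, at 151, 135 and 144 CPM at T24 against 184 and 177 CPM in the repeats, a log2 fold change of -0.34 ± 0.06 (SE; edgeR adjusted p = 0.00422), where 2.45% of all genes were called lower. Leaving out a repeat library raised that adjusted p to 0.133 or 0.0516. Gclc stood at 87.4, 80.7 and 81.5 CPM at T24 against 92.4 and 97.3 CPM in the repeats, with a log2 fold change of -0.19 ± 0.06 that just missed the threshold (edgeR adjusted p = 0.05). Hmox1, Txnrd1 and Gclc lay below without overlap, as 22% of genes did. Without T24 control replicate 1 the edgeR adjusted p was 0.022 for Gclc and 0.000629 for Nqo1 (log2 fold change -0.52). With the repeats taken by file header, the log2 fold change was -0.25 for Txnrd1 (edgeR adjusted p = 0.045), -0.32 for Gclc (adjusted p = 0.00995) and -0.15 for Gclm (adjusted p = 0.439), while Gclm by title was 0.09 ± 0.08 (edgeR adjusted p = 0.483).

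Samples 10 and 11 were each measured in a pair of libraries, so the p-values here compare libraries of the same numbered samples, not conditions. Between the libraries titled as repeats and the first ones, with sample as a block, 3 of 5 genes were called by edgeR, where 18.7% of all genes were. DESeq2 called 289 genes and 0 members, but its adjusted p is available for Txnrd1 only (DESeq2 adjusted p = 0.396). The DESeq2 count therefore says nothing about the other members. Without the block for sample, edgeR called 1 of 5, Gclm (adjusted p = 0.0208), and the adjusted p was 0.0806 for Gclc and 0.265 for Txnrd1. Gclm stood at 31.7 and 29.9 CPM in the repeats against 36.7 and 36.6 CPM, with a log2 fold change of -0.25 ± 0.06 (SE; edgeR adjusted p = 0.00115). Gclc stood at 92.4 and 97.3 CPM in the repeats against 104 and 104 CPM, with a log2 fold change of -0.13 ± 0.04 (edgeR adjusted p = 0.00405). For Txnrd1 the values were 184 and 177 CPM in the repeats against 174 and 168 CPM (log2 fold change 0.08 ± 0.03, edgeR adjusted p = 0.0453). Hmox1 and Nqo1 differed by -0.01 ± 0.05 and -0.03 ± 0.05.

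Sepiapterin was compared with PBS at each time. The reasons for choosing the genes used the T6 controls but not this contrast. Earlier results of these data were known, however, when genes and tests were chosen. At 24 hours 2 of the 5 genes were higher with sepiapterin, where 2.07% of all genes were called higher, and DESeq2 called the same 2 among 835 genes in either direction (585 by edgeR). Hmox1 stood at 22.3, 17.5 and 21.3 CPM with sepiapterin and 15.3, 7.63 and 8.47 CPM in controls. Every sepiapterin library lay above every control, as for 11.5% of genes. T24 control replicate 1, at 15.3 CPM, came near only the lowest sepiapterin library, at 17.5 CPM. The log2 fold change was 0.96 ± 0.20 (SE, a 1.94-fold difference, 95% interval 0.52 to 1.39; edgeR adjusted p = 0.0202), above those of 99.5% of genes.

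Gclc stood at 99.5, 97.3 and 98.9 CPM with sepiapterin at T24 and 87.4, 80.7 and 81.5 CPM in controls. The groups did not overlap, and replicate 1 was again the highest control. The log2 fold change was 0.24 ± 0.06 (SE, 1.18-fold, 95% interval 0.11 to 0.38; edgeR adjusted p = 0.0313). Both calls held without T24 control replicate 1 or sepiapterin replicate 3, and each was lost without T24 control replicate 2 or 3 or sepiapterin replicate 1 or 2, with log2 fold changes over all 6 such fits of 0.77 to 1.34 for Hmox1 and 0.22 to 0.28 for Gclc. In a fit of the T24 libraries alone the adjusted p was 0.103 for Hmox1 and 0.0395 for Gclc.

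**Figure D3:**
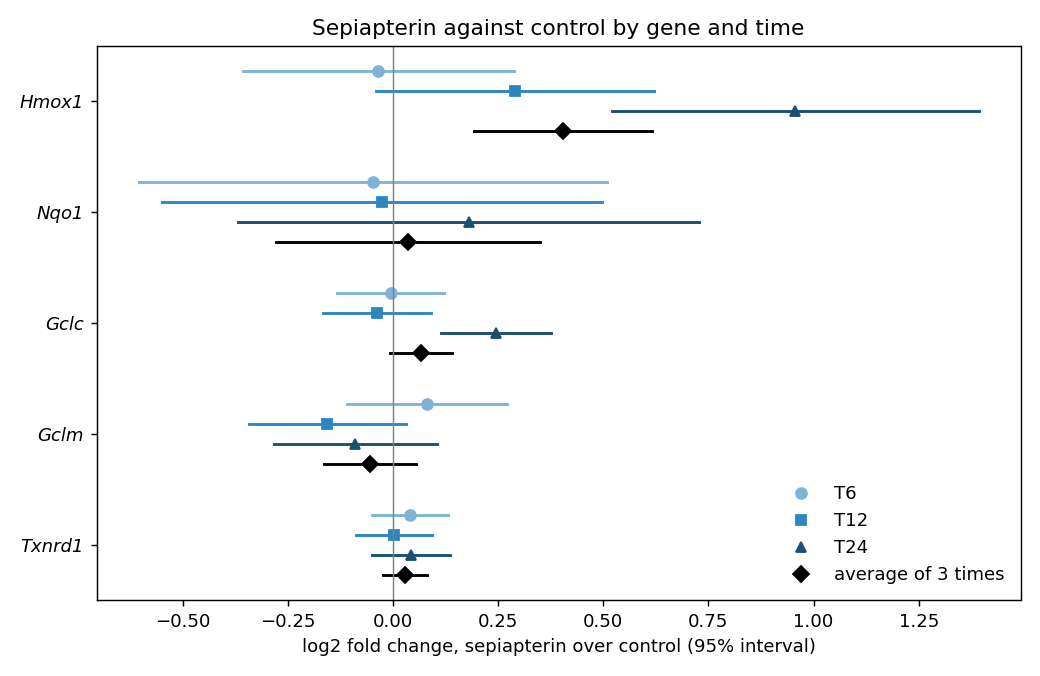
Log2 fold change of sepiapterin over control (horizontal axis) with its 95% interval for each gene, at T6 (circles), T12 (squares), T24 (triangles) and averaged over the 3 times (diamonds). The T24 intervals of Hmox1 (0.52 to 1.39) and Gclc (0.11 to 0.38) lie above 0, as does that of the Hmox1 average (0.19 to 0.62), which did not pass the adjusted threshold.

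The other genes were not called at T24. Nqo1 stood at 48.3, 43.7 and 46.2 CPM with sepiapterin and 51.2, 33.2 and 37.4 CPM in controls (log2 fold change 0.18, 95% interval -0.37 to 0.73). T24 control replicate 1, high for Hmox1 and Gclc, held the highest Nqo1 value of this time. Gclm, at 30.1, 29.5 and 33.2 CPM with sepiapterin and 31.5, 33.2 and 34.3 CPM in controls, had an interval of -0.28 to 0.10. For Txnrd1 it was -0.05 to 0.14. The Hmox1 estimate of 0.96 thus lies outside the intervals of Nqo1, Gclm and Txnrd1. The Hmox1 interval itself (0.52 to 1.39) overlaps that of Nqo1 and not those of Gclm and Txnrd1.

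At 6 hours no member was called by edgeR or DESeq2 where 0 of 14035 genes were (0%) by either tool, and 0 of 5 had an unadjusted p under 0.05, as 2.14% of genes had. Txnrd1 stood at 184, 184 and 185 CPM with sepiapterin and 178, 177 and 182 CPM in controls, a log2 fold change of 0.04 ± 0.04 (SE), and was the only member without overlap, as 5.28% of genes lay above without overlap. The log2 fold change of Hmox1 was -0.03 (95% interval -0.36 to 0.29). At 12 hours 0 of 5 were called by either tool where 0.0214% of all genes were by edgeR, and 0 had an unadjusted p under 0.05, as 15.9% of genes had. Hmox1 stood at 52.5, 45.3 and 64.2 CPM with sepiapterin and 45.4, 46.9 and 40.6 CPM in controls, which overlapped (log2 fold change 0.29, 95% interval -0.04 to 0.62).

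Averaged over the 3 times, no member was called by edgeR, where 1.03% of all genes were. Hmox1 had a log2 fold change of 0.40 ± 0.10 (SE; edgeR adjusted p = 0.0611) and was the only member at an unadjusted p under 0.05, as 17.6% of genes were. DESeq2 called it (adjusted p = 0.023) among 452 genes, against 144 by edgeR. The intervals of the other genes were -0.28 to 0.35 for Nqo1, -0.01 to 0.14 for Gclc, -0.16 to 0.06 for Gclm and -0.02 to 0.08 for Txnrd1. Whether the sepiapterin effect differed among the 3 times was tested directly, and 0 of 5 genes were called by edgeR or DESeq2, where edgeR called 0.0356% of all genes. An unadjusted p under 0.05 was found for 2 members and 12.8% of all genes. The edgeR adjusted p was 0.219 for Hmox1 and 0.236 for Gclc. Without T24 control replicate 1 that of Hmox1 was 0.0274. The calls at T24 are thus not shown to be of that time alone.

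Likeness between the genes was measured by Pearson's r of mean log2 CPM over the 7 groups, as a description over 7 points that share library batches. Txnrd1 was closest to Hmox1 (r = 0.98, rank 10 of 11962 genes), followed by Gclc (0.79), Nqo1 (0.40) and Gclm (0.08). Gclm was in turn closest to Nqo1 (0.90). Gclc had r = 0.79 with Hmox1 and 0.82 with Nqo1. These values include the T0 and T6 controls that chose Hmox1. Among all genes the identifiers most like Hmox1 were ENSRNOG00000019924 (r = 0.99) and ENSRNOG00000003835 (r = 0.99), which no source used here pairs with a name. Over the 23 single libraries ENSRNOG00000003835 kept r = 0.97 and ENSRNOG00000019924 had 0.81. The mean of ENSRNOG00000003835 was 49.8 ± 2.41 CPM with sepiapterin and 43.6 ± 2.99 CPM in controls at T24, and 76.4 ± 1.46 CPM in T6 controls against 40.7 ± 2.96 CPM in T0 controls (SD, n = 3 each). For ENSRNOG00000019924 the means were 68.8 ± 2.33 and 64.0 ± 3.78 CPM at T24. They were 72.9 ± 1.93 CPM in T6 controls against 63.3 ± 3.24 CPM in T0 controls. Its changes were thus small, as r does not measure the size of a change.

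Within groups, libraries that were high in Nqo1 were often high in Hmox1 too, and in Gclc mainly through 3 libraries named below. One of them, T0 control replicate 1, lay furthest from its group of all libraries. Such r values were not computed for other genes, so how common they are is not known. Over the deviations of 23 libraries from their group means, r was 0.83 for Nqo1 with Gclc, 0.69 for Nqo1 with Hmox1, 0.67 for Hmox1 with Gclc and 0.58 for Nqo1 with Gclm. Txnrd1 gave r between -0.53 and 0.17 with the other genes. T0 control replicate 1 exceeded its group mean by 0.86 log2 units for Nqo1, 0.29 for Gclm, 0.20 for Hmox1 and 0.16 for Gclc, against -0.05 for Txnrd1. T12 sepiapterin replicate 3 and T24 control replicate 1 exceeded theirs by 0.37 and 0.36 for Nqo1 and by 0.26 and 0.61 for Hmox1. Without these 3 libraries, chosen after their values were seen, r was 0.67 for Nqo1 with Hmox1, 0.49 for Hmox1 with Gclc, 0.34 for Nqo1 with Gclm and 0.26 for Nqo1 with Gclc. For Hmox1 with Gclm r was 0.56 without them and 0.19 with them.

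**Figure D4:**
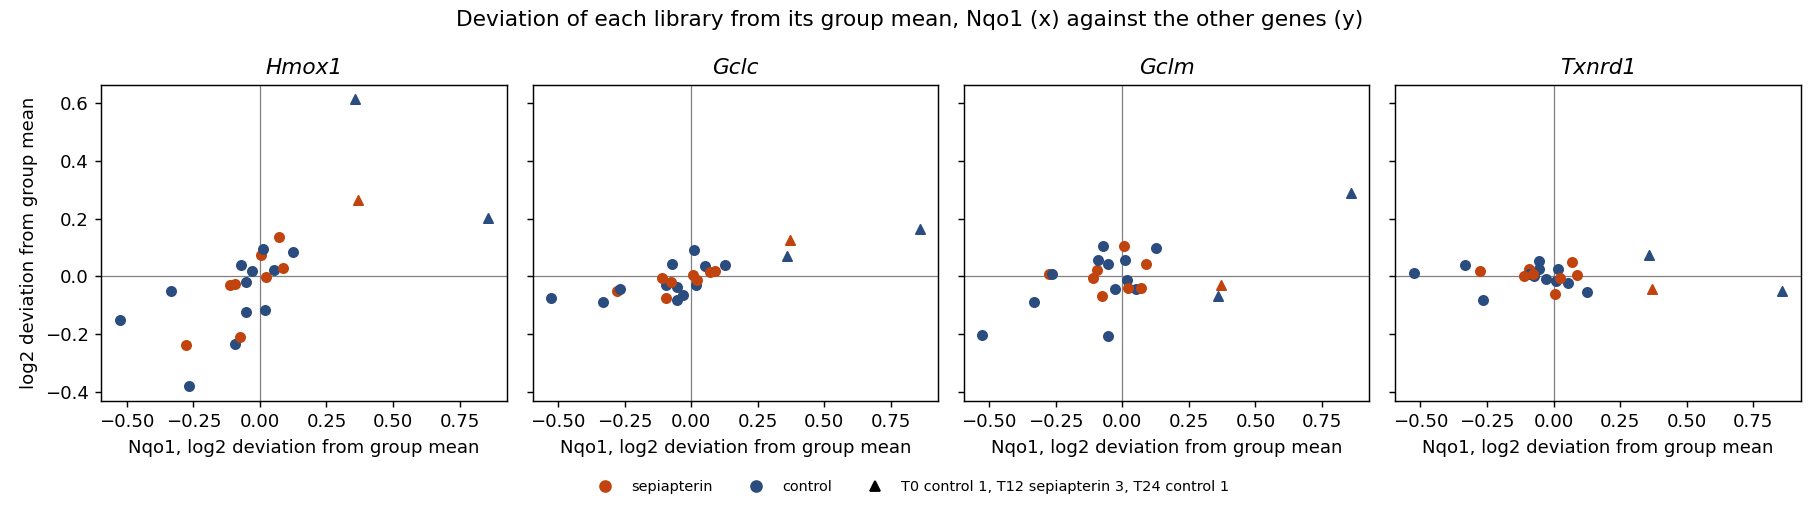
Deviation of each of 23 libraries from its group mean in log2 units, Nqo1 on the horizontal axis and the named gene on the vertical axis; orange marks sepiapterin, blue controls, and triangles the 3 libraries named in the text. Hmox1 and Gclc lie above 0 in those 3 libraries, while Txnrd1 stays between -0.05 and 0.07 in them.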

How the data were processed

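Polyadenylated RNA of 23 libraries was sequenced as stranded libraries from 500 ng of total RNA, per the labels' protocols. The authors deposited raw read counts for 32494 Ensembl gene identifiers per library. Per the submitters' processing notes, the tools were cutadapt 1.8, STAR 2.5.2b and HTSeq 0.6.1, and the build Rnor_6.0. Whether counting used strand is stated in no source used here. Reads outside genes (14.8 to 17.1%), at several places (23.5 to 25.0%) or ambiguous (0.224 to 0.269%) were left out. From these counts, edgeR 4.0.16 (R 4.3.3) fitted 21 libraries in 7 groups with TMM scaling, a minimum count of 10 and robust quasi-likelihood, testing 14035 genes. T24 controls and T12 repeats were fitted with the T24 sepiapterin libraries (13653 genes), and the libraries of samples 10 and 11 with sample as a block (13505 genes). The standard error of a log2 fold change is its size over the root of the F statistic. Counting error per gene and library was 1.44 to 8.54%. The fitting was tested on simulated counts with the same setting of spread for every gene. That test does not cover genes as variable as Nqo1 in T0 controls, where the SD was 56.6% of the mean. Group means are ± SD. Alternatives were DESeq2 1.42.0, other scalings, no filter, fewer libraries, no block and the T12 controls by header.

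Members, lists and tests were chosen with earlier results of these data known. The named genes are the 5 members in every comparison, and the genes whose group means correlate best with them at an average log2 CPM of 1 or more, by symbol or else at most 2 identifiers. The 13 gene lists of symbols, on NRF2, heme, other stress pathways and cell types, were not used, since 0 of 47357 genes in the reference table (GRCr8) carry an Ensembl identifier.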

Additional observations from a re-analysis of the deposited data

How the results depend on the processing

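Counts of called genes moved most. For sepiapterin against control, edgeR called 0 genes at T6, 3 at T12 and 585 at T24, 144 on average over the times, and 5 for a difference among times. With the compared groups alone these were 1, 16, 196, 656 and 20, and members called were 1 at T24 and 1 on average. DESeq2 called 234 at T12, 452 on average (1 member) and 124 for the difference. Without the low-count filter the counts were 66, 227 and 34 for the same 3 tests, and with library size only the difference gave 2. With T12 controls by header, T12 gave 10 and the difference 9. For the time contrasts, the compared groups alone gave 1644 genes at T6 over T0 (3035 over all groups), 1523 with 3 members (1 of them Hmox1, which the T6 controls chose) at T12 over T6 in controls (655), 1035 in sepiapterin (614) and 1434 at T24 over the T12 repeats (757). By header, T12 over T6 in controls gave 167 genes and 0 members, and T24 over T12 controls 79. Adding both libraries of samples 10 and 11 gave 342 for T12 over T6, and no filter gave 1256 for T24 over the repeats. For repeat over first libraries DESeq2 called 289 genes and 0 members, with an adjusted p available for Txnrd1 only, and edgeR called 2527 genes. Without the replicate block for sample number, a fit added after seeing the data, edgeR called 988 genes and 1 member.

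Without single libraries, sepiapterin counts ran from 0 to 309 at T12, 11 to 1463 at T24 (0 to 2 members), 33 to 446 on average (0 to 1 member) and 0 to 458 for the difference (0 to 1 member). Time counts ran from 2030 to 3200 for T6 over T0, 77 to 1398 for T12 over T6 in controls (0 to 1 member), 98 to 561 in sepiapterin, 22 to 1208 for T24 over the repeats (0 to 4 members) and 720 to 2222 for T24 over T12 in sepiapterin. A lone remaining library was assumed to vary like the other groups.

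Of the members' log2 fold changes under alternatives, 591 kept direction and side of the threshold, 31 turned direction, 22 lost and 12 gained a call. These counts include T6 over T0, where no threshold was applied, and the other Hmox1 contrasts given without a test. They leave out the test of a difference among times, where Hmox1 gained a call without T24 control replicate 1 (edgeR adjusted p = 0.0274). All turns were of log2 fold changes that were not called. In the main fits these ran from -0.16 (Gclm, sepiapterin at T12) to 0.09 (Gclm, T24 over the T12 repeats). With library size only, Gclc gave 0.0057 for sepiapterin at T6 and -0.0067 for T12 over T6 in sepiapterin, Gclm -0.0075 for T24 over T12 in sepiapterin, and Hmox1 0.0013 for repeat over first libraries. By header, sepiapterin at T12 gave 0.015 for Gclm, 0.053 for Gclc and -0.048 for Txnrd1. By header, T12 over T6 in controls gave -0.041 for Gclc and 0.0032 for Txnrd1, and T24 over T12 controls -0.15 for Gclm. With both libraries added, sepiapterin at T12 gave 0.0061 for Gclc and -0.022 for Txnrd1. Without single libraries, sepiapterin at T6 ranged from -0.091 to 0.017 for Hmox1, -0.091 to 0.0054 for Nqo1 and -0.038 to 0.045 for Gclc. At T12 it ranged from -0.24 to 0.10 for Nqo1 and -0.026 to 0.028 for Txnrd1, and on average from -0.034 to 0.10 for Nqo1. T12 over T6 in sepiapterin ranged from -0.22 to 0.032 for Hmox1 and -0.046 to 0.055 for Gclc. T24 over T12 in sepiapterin ranged from -0.24 to 0.10 for Nqo1, -0.041 to 0.047 for Gclm and -0.039 to 0.062 for Gclc. The cause was not tested for any of these. Samples 10 and 11 were paired through their repeat libraries as above. For the other comparisons no paired analysis was possible because their groups share no sample number by label. Counting error alone was 1.44 to 8.54% of a gene's count in a library.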
